A study of Mus musculus with 12 samples.

Results

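Cytosolic ribosomal protein genes are the genes for the protein parts of the ribosome of the cytoplasm. They were taken from RefSeq's protein-coding genes of the mouse assembly GRCm38.p6 (mm10) by symbol: Rpl or Rps followed by a number with an optional a, x or l, plus Rplp0, Rplp1 and Rplp2. Pseudogenes and the S6 kinases were left out. This gave 80 genes of 21900, of which 50 code for the large subunit (Rpl and Rplp) and 30 for the small subunit (Rps). The symbol rule does not cover a few proteins of the same ribosome, such as Rpsa and Fau, which are described as a list of their own.

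Open chromatin was assayed by ATAC-seq, which marks accessible DNA through cuts by a transposase, in mouse dorsal root ganglia, the clusters of sensory neurons and their supporting cells beside the spinal cord. The 12 libraries fall into 4 groups of 3: Silc1-/- with injury, Silc1-/- with sham operation, wild type with injury and wild type with sham operation. Silc1 is a long noncoding RNA gene, the labels name no tissue-specific driver for its deletion, and injury was a crush of the sciatic nerve. Each library was made from 6 ganglia of the L4 to L6 levels, so it holds a mixture of cells; the sources used here give neither age nor time after injury nor the number of animals per library, and the labels name purchased C57black6 Ola HSD males and strains bred in house without tying them to libraries. The authors deposited 1 list of peak summits for each group, so no spread between animals could be measured. They hold 35815 summits for injured Silc1-/- ganglia, 48332 for sham Silc1-/- ganglia, 43841 for injured wild-type ganglia and 27279 for sham wild-type ganglia. A summit is the position in a peak with the most signal, and its score is the authors' −log10 of a p-value or q-value. Scores grow with sequencing depth, which is unknown here, so they were ranked within a list and not tested between lists.

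Ribosomal protein genes are needed by every growing cell and are transcribed at high levels from promoters that often lie in CpG-rich DNA. Their RNAs start with a C followed by a run of pyrimidines, the 5′ terminal oligopyrimidine (TOP) tract, through which the mTORC1 pathway controls their translation. In neurons, ribosomal protein RNAs are also carried into axons, where proteins are made locally after nerve injury. The genes served here as a constitutive set against which lists could be read.

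A gene was counted in a list where a summit lay within 1 kb of either of its ends, since the gene table gives no strand. Nearly all ribosomal protein genes met this in each list. In injured Silc1-/- ganglia 72 of 80 genes had such a summit, or 90.0% (95% Wilson interval 81.5% to 94.8%), against 45.6% of all protein-coding genes. The count was also 72 of 80 in sham Silc1-/- ganglia, against 50.8% of all protein-coding genes. In injured wild-type ganglia 73 of 80 genes had one, or 91.2% (83.0% to 95.7%), against 51.9% of all protein-coding genes. In sham wild-type ganglia the count was 72 of 80, against 46.2% of all protein-coding genes. The intervals cover counting error only, and in each list the lower bound for the ribosomal protein genes lay above the share of all genes. Between lists, the 4 shares lay within each other's intervals.

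The same genes made up these counts. 71 of the 80 genes, or 88.8% (80.0% to 94.0%), had a gene-end summit in all 4 lists, against 40.8% of all protein-coding genes. A further gene was in 3 lists, 2 genes were in 1 list and 6 genes were in none, against 43.4% of all protein-coding genes in none. The shares of the subunits were alike: 44 of 50 large-subunit genes (88.0%; 76.2% to 94.4%) and 27 of 30 small-subunit genes (90.0%; 74.4% to 96.5%) were in all 4 lists. Genes in all lists included Rplp0, Rplp1 and Rplp2 of the acidic stalk that recruits translation factors, Rpl5 and Rpl11, which bind the 5S RNA and restrain Mdm2 when ribosome assembly fails, Rps19 and Rps26, which are mutated in Diamond-Blackfan anaemia in humans, Rps6, the substrate of the S6 kinases, and Rps27a, which is made as a fusion with ubiquitin.

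**Figure D1:**
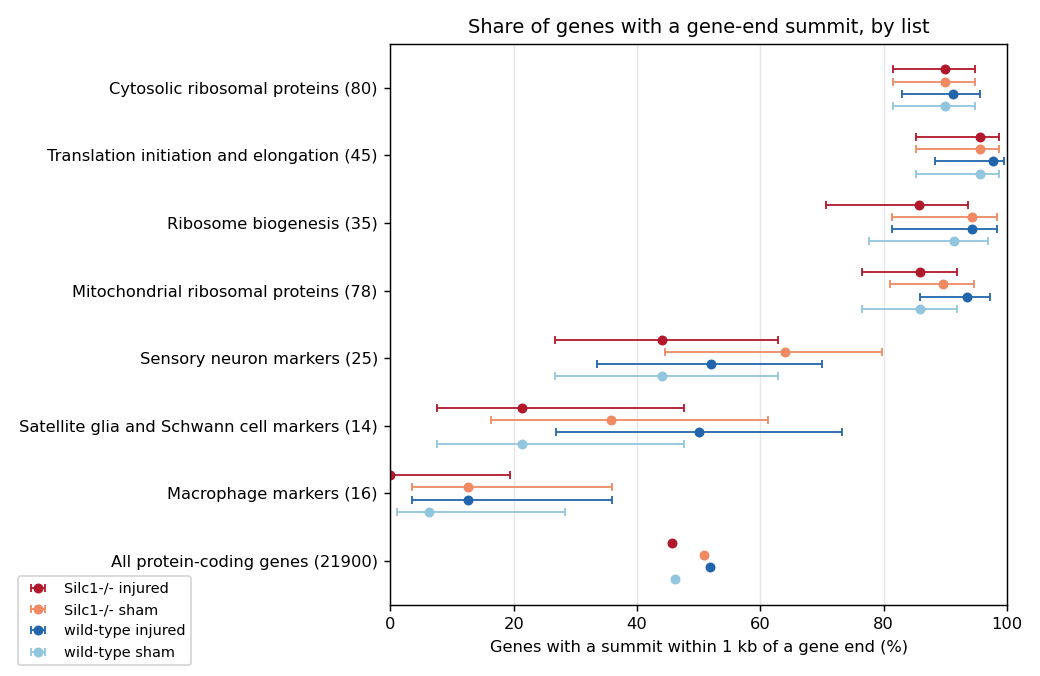
Percent of genes with a summit within 1 kb of a gene end (horizontal axis) for 7 gene lists and all protein-coding genes, with the number of genes in brackets; points are the 4 lists and bars are 95% Wilson intervals. The 80 cytosolic ribosomal protein genes lie at 90.0% to 91.2% in the 4 lists and all protein-coding genes at 45.6% to 51.9%.

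The 9 genes outside the count of 71 fell into different kinds. Rpl10l and Rpl39l, copies of Rpl10 and Rpl39 that are known for their expression in testis, and Rpl32l had no summit in the gene or within 1 kb in any list. The nearest summit to Rpl10l lay 162 kb away or more, and those nearest to Rpl32l and Rpl39l at least 17.9 kb away. These 3 genes were the members without any summit in the 4 lists.

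Rps2, Rps27l, Rpl22 and Rpl17 had summits in all 4 lists that lay inside the gene, past the 1 kb limit. Rps2 codes for a small-subunit protein near the entry of the mRNA channel. Its summits lay 21 bp after the listed transcription start in injured Silc1-/- ganglia, and before it by 38 bp in sham Silc1-/- ganglia, 36 bp in injured wild-type ganglia and 21 bp in sham wild-type ganglia. Their scores were 12.0, 30.9, 39.9 and 27.9 in the same order. The table's left end of Rps2 lies 1904 to 1963 bp away, so the gene was missed through the end used and not for lack of a summit. Rps27l, a copy of Rps27 that p53 induces, had summits 22, 94, 75 and 99 bp before a listed start in injured Silc1-/-, sham Silc1-/-, injured wild-type and sham wild-type ganglia. Rpl22, a large-subunit protein that also binds viral and cellular RNAs, had summits 32, 33, 92 and 33 bp after a listed start, with scores of 11.6, 27.9, 34.7 and 21.9 in the same order. Both genes thus had a start-proximal summit in each list. Rpl17, at the mouth of the exit tunnel, has no listed start in the promoter table, and its summits lay 1537, 1520, 1571 and 1571 bp inside its left end.

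Rpl19, which takes part in a bridge between the subunits, had weak and scattered summits. No summit lay in the gene or within 1 kb in injured Silc1-/- ganglia. A summit 33 bp after a listed start with a score of 6.84 was listed in sham Silc1-/- ganglia, 1 of 13.2 at 65 bp was listed in injured wild-type ganglia, and 1 of 7.91 at 232 bp was listed in sham wild-type ganglia. The gene therefore appeared near its start in 3 lists, with scores in the lower part of the range of ribosomal protein genes.

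Rps4x, the X-linked gene of a small-subunit protein, was the member in 3 lists. Its summit lay at position 102189380 of chromosome X in injured Silc1-/- ganglia, at 102189381 in injured wild-type ganglia and at 102189380 in sham wild-type ganglia, 10 or 11 bp from the listed start. The scores were 1.91 in injured Silc1-/- ganglia, 9.88 in injured wild-type ganglia and 4.89 in sham wild-type ganglia, and no summit was listed in sham Silc1-/- ganglia. The score of 1.91 is close to the lowest that the lists hold, 1.30, which is −log10 of 0.05.

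With a summit counted anywhere in the gene or within 1 kb of it, a measure added after these exceptions had been seen, 76, 76, 77 and 77 of 80 genes were found in injured Silc1-/-, sham Silc1-/-, injured wild-type and sham wild-type ganglia. 75 genes, or 93.8% (86.2% to 97.3%), were then in all 4 lists, against 52.0% of all protein-coding genes, and Rpl19 and Rps4x were in 3. Among the 60 members with a listed start, 53 had a summit within 1 kb of it in all 4 lists, against 44.4% of the 17492 protein-coding genes with one.

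The comparisons between lists turned on single genes. Between injured and sham Silc1-/- ganglia, 1 gene, Rps4x, had a gene-end summit with injury and not with sham, against 1.91% of all protein-coding genes. In the other direction, 1 gene, Rpl22, had one with sham and not with injury, against 7.18% of all protein-coding genes. The Rpl22 summit was a second one near the far end of the gene, with a score of 4.39, while the summit at its start was in both lists.

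In wild-type ganglia, 1 gene, Rpl19, had a gene-end summit with injury and not with sham, against 7.07% of all protein-coding genes. No ribosomal protein gene had one with sham and not with injury, against 1.33% of all protein-coding genes. The Rpl19 summit had a score of 4.07 and lay 605 bp inside the left end of the gene, at −4102 bp from the nearest listed start.

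Between genotypes, no ribosomal protein gene had a gene-end summit in injured Silc1-/- ganglia and not in injured wild-type ganglia, against 1.71% of all protein-coding genes. In the other direction the count was 1 gene, Rpl19, against 8.03% of all protein-coding genes. In sham ganglia, Rpl22 was found in Silc1-/- and not in wild type, against 6.64% of all protein-coding genes, and Rps4x in wild type and not in Silc1-/-, against 1.96% of all protein-coding genes. These comparisons share lists, and with 1 list per group none of them could be tested.

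Although ribosomal protein genes were nearly always present, their scores were middling. The score of a gene was taken from its highest gene-end summit. The median over ribosomal protein genes was 11.4 in injured Silc1-/- ganglia (range 1.91 to 38.5), against 9.74 over all protein-coding genes with such a summit. It was 19.1 in sham Silc1-/- ganglia (4.39 to 50.4), against 14.0 over all such genes. In injured wild-type ganglia it was 28.0 (4.07 to 75.2), against 20.8, and in sham wild-type ganglia 17.7 (2.92 to 54.2), against 14.2.

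The medians over all genes also take in genes found in fewer lists. Among the 8931 protein-coding genes with a gene-end summit in all 4 lists, the 71 ribosomal protein genes had a median percentile of 53.3 in injured Silc1-/- ganglia, 55.0 in sham Silc1-/- ganglia, 52.4 in injured wild-type ganglia and 55.6 in sham wild-type ganglia. Their scores were thus close to the middle of genes that were as constantly present. 24 of the 71 genes (33.8%) lay above the 50th percentile in all 4 lists, against 35.3% of the 8931 genes.

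**Figure D2:**
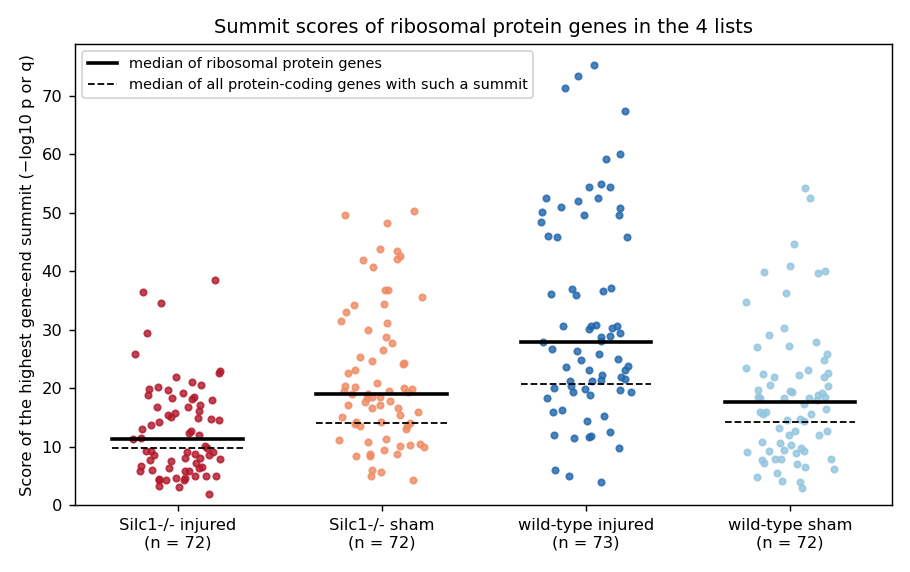
Score of the highest gene-end summit of each ribosomal protein gene (vertical axis, −log10 of a p- or q-value) in each of the 4 lists; solid lines are the medians of these genes (11.4, 19.1, 28.0 and 17.7) and dashed lines those of all protein-coding genes with such a summit (9.74, 14.0, 20.8 and 14.2). Heights may not be compared between lists, since scores grow with depth.

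Some genes were high in every list. Rps29, a small zinc-binding protein of the small subunit, scored 38.5 in injured Silc1-/-, 49.7 in sham Silc1-/-, 59.2 in injured wild-type and 54.2 in sham wild-type ganglia, which put it between percentiles 89.0 and 98.6. Rpl15, of the large subunit, scored 29.4, 50.4, 67.4 and 52.5 in the same order (percentiles 93.4 to 97.5). Rpl34, also of the large subunit, scored 34.6, 48.2, 73.4 and 40.0 (percentiles 91.4 to 97.3). Rpl15 and Rpl34 were the 2 members above the 90th percentile in all 4 lists. Rpl27a had the highest score of all members in injured wild-type ganglia, 75.2, and lay between percentiles 80.9 and 96.4 over the lists. The 5 highest scores of at least 1 list also included Rpl37, Rplp0, Rpl30 and Rps21.

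Others were low in every list. Rpl38, a large-subunit protein needed in mouse for translation of a subset of Hox RNAs, scored 4.37 in injured Silc1-/-, 5.99 in sham Silc1-/-, 5.05 in injured wild-type and 6.56 in sham wild-type ganglia. These values lay between percentiles 2.63 and 13.5. Rpl6 scored 4.55, 5.05, 5.99 and 7.87 in the same order (percentiles 4.37 to 19.5), and Rpl35a lay between percentiles 4.65 and 26.6. The 5 lowest scores of at least 1 list, beside genes named above, included Rpl12, Rpl23, Rpl29, Rpl32, Rpl37a, Rpl39, Rps18 and Rps28. A constant presence in the lists thus went with scores from the bottom to the top of the range.

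The genes chosen for their functions lay across the range. Rplp0 had percentiles of 83.1 in injured Silc1-/-, 93.4 in sham Silc1-/-, 79.8 in injured wild-type and 68.2 in sham wild-type ganglia. Rplp1 lay between 58.5 and 77.5, and Rplp2 between 11.6 and 53.9, so the stalk proteins did not share a level. Rps6 lay between 65.9 and 91.2, Rps26 between 59.7 and 83.6 and Rps19 between 55.6 and 78.2. Rpl5 lay between 21.0 and 53.2 and Rpl11 between 16.9 and 46.7, both mostly under the middle of the genes in all 4 lists. Rpl10, which is placed last in the large subunit, lay between 18.7 and 42.5, and Rps27a between 34.7 and 65.6.

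**Figure D3:**
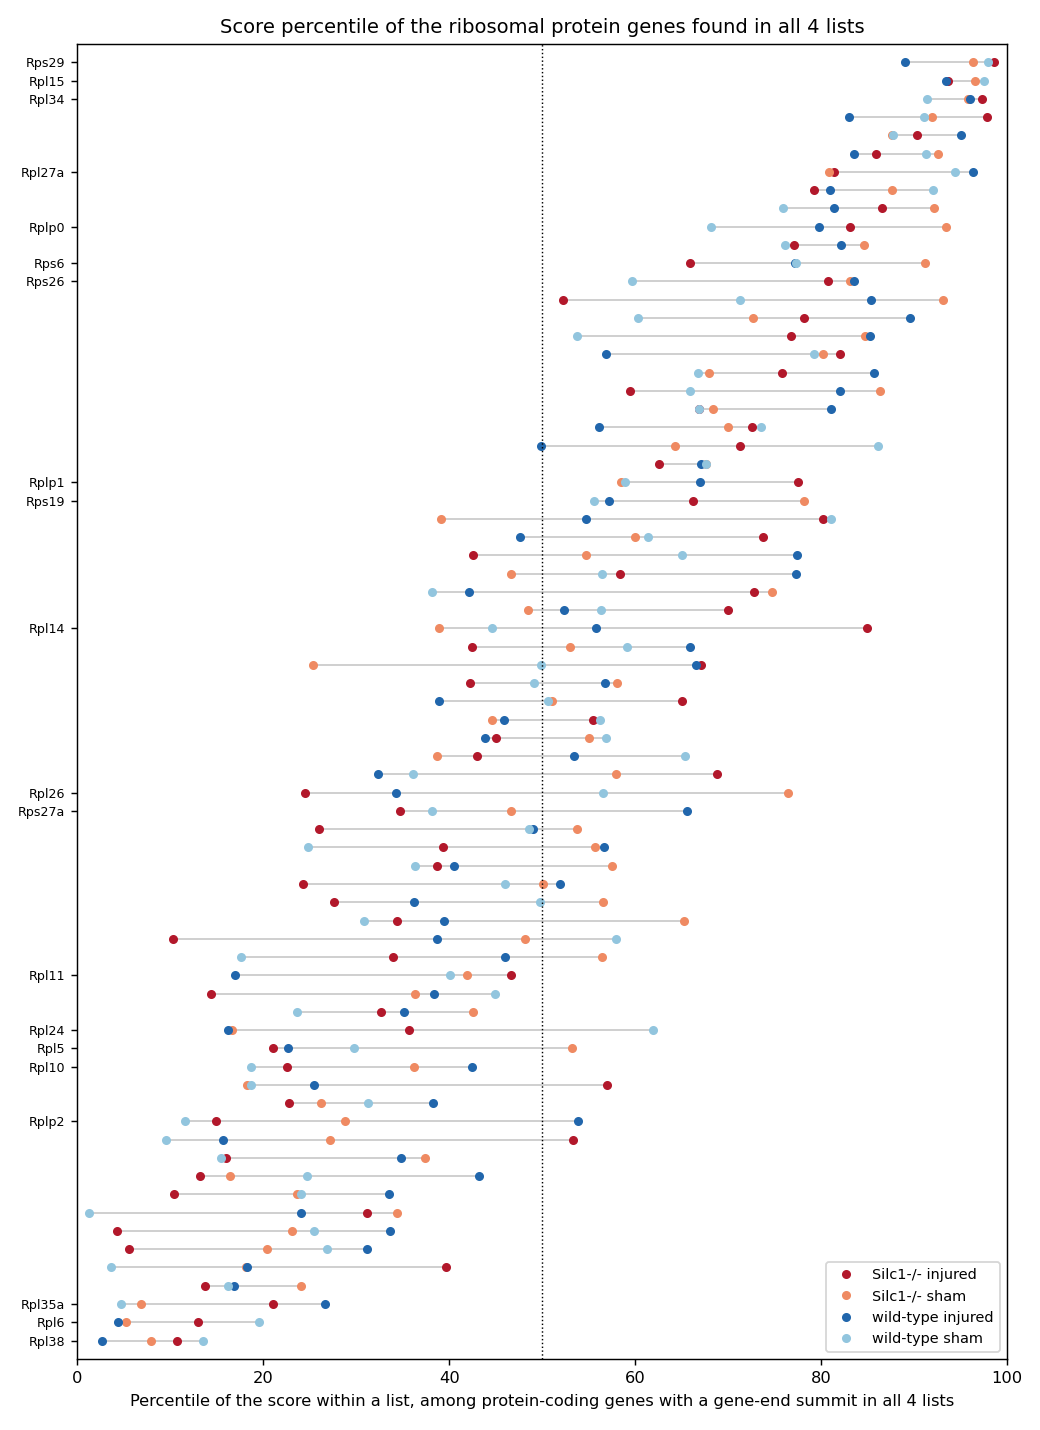
Percentile of each gene's score within a list (horizontal axis) among the 8931 protein-coding genes with a gene-end summit in all 4 lists, for the 71 ribosomal protein genes among them, ordered by their mean, with names at genes described in the text; colours are the 4 lists and the dotted line is the 50th percentile. Rpl38 lies between 2.63 and 13.5 at the bottom and Rps29 between 89.0 and 98.6 at the top.

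The order of the genes was alike between lists. Spearman's rho of the scores of the 71 genes lay between 0.744 and 0.787 over the 6 pairs of lists, and between 0.811 and 0.872 over the 8931 genes. These are descriptions across genes, which are not independent replicates, and the lists came from 1 study with 1 way of processing. The gap between a gene's highest and lowest percentile over the lists had a median of 25.6 points for ribosomal protein genes and 21.3 points for all 8931 genes.

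Most genes had their highest score in the same list. 59 of the 71 genes (83.1%) had their highest score in injured wild-type ganglia, and so had 79.8% of the 8931 genes. 58 of the 71 (81.7%) had their lowest in injured Silc1-/- ganglia, and so had 74.4% of the 8931 genes. Both shares lay near those of all genes.

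Shifts of rank between groups were therefore read as percentiles, side by side. Between injured and sham Silc1-/- ganglia the median difference, injured minus sham, was −3.43 points, with 29 genes higher and 42 lower with injury. In wild-type ganglia it was 5.49 points, with 44 genes higher and 27 lower with injury. In injured ganglia the difference of Silc1-/- minus wild type was −3.06 points (30 higher, 41 lower), and in sham ganglia 1.28 points (40 higher, 31 lower). The quartiles of the differences, in this order, were −14.4 and 6.46, −8.57 and 14.1, −16.4 and 9.61, and −5.32 and 17.6 points. Each pair had both signs. In wild type the median percentile itself was lower with injury, 52.4 against 55.6 with sham, unlike the median difference. The share of ribosomal protein genes that were higher was 40.8% for injured minus sham in Silc1-/- and 62.0% in wild type, and 42.3% for Silc1-/- minus wild type in injured and 56.3% in sham ganglia. Over all 8931 genes these shares were 50.4%, 49.8%, 50.2% and 49.6% in the same order. The medians over all 8931 genes lay between −0.0728 and 0.0784 points. The comparisons share lists, and the difference between the genotypes was not tested.

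The widest shifts of single genes, chosen after their values were seen, went in both directions. Rpl26, at the exit tunnel, was at percentile 24.5 in injured and 76.4 in sham Silc1-/- ganglia. Rpl14 was at 84.9 in injured and 38.9 in sham Silc1-/- ganglia. Rpl24 was at 16.2 in injured and 61.9 in sham wild-type ganglia, while Rplp2 was at 53.9 in injured and 11.6 in sham wild-type ganglia. Without replicate lists, shifts of this size cannot be told apart from the spread between libraries.

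The 4 X-linked genes had lower scores than the autosomal ones. Rpl10, Rpl36a, Rpl39 and Rps4x had median scores of 6.24 in injured Silc1-/-, 13.5 in sham Silc1-/-, 17.4 in injured wild-type and 6.73 in sham wild-type ganglia. The autosomal members had medians of 12.2, 19.4, 28.7 and 18.4 in the same order. The X-linked median was the lower in each list, and it rests on 4 genes, or 3 in sham Silc1-/- ganglia. X-linked and autosomal genes were not compared over all protein-coding genes. The difference therefore cannot be called particular to ribosomal protein genes. Sex was not given per library, and males carry 1 copy of these genes; the part of copy number in these scores was not tested.

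Positions of the summits were set against the listed starts. A promoter table from RefSeq (GRCm38.p6) lists starts for 60 of the 80 genes, in 72 windows, and 10 genes have more than 1. The highest summit within 1 kb of a listed start lay at a median of −23 bp in injured Silc1-/- ganglia, −39 bp in sham Silc1-/- ganglia, −35 bp in injured wild-type ganglia and −30 bp in sham wild-type ganglia, where a minus sign means before the start. Over all protein-coding genes the medians lay between −43 and −39 bp. Within 100 bp of the start lay 69.1% of the ribosomal protein summits in injured Silc1-/-, 76.4% in sham Silc1-/-, 76.8% in injured wild-type and 80.0% in sham wild-type ganglia. The shares over all protein-coding genes were 60.5%, 61.0%, 63.8% and 62.2% in the same order. The ribosomal protein shares rest on 38 of 55, 42 of 55, 43 of 56 and 44 of 55 genes. No intervals were taken for them, and the lists hold largely the same genes. The summits of ribosomal protein genes thus lay at a place like that of other genes. Their share within 100 bp of the start was larger in these counts, which was not tested.

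**Figure D4:**
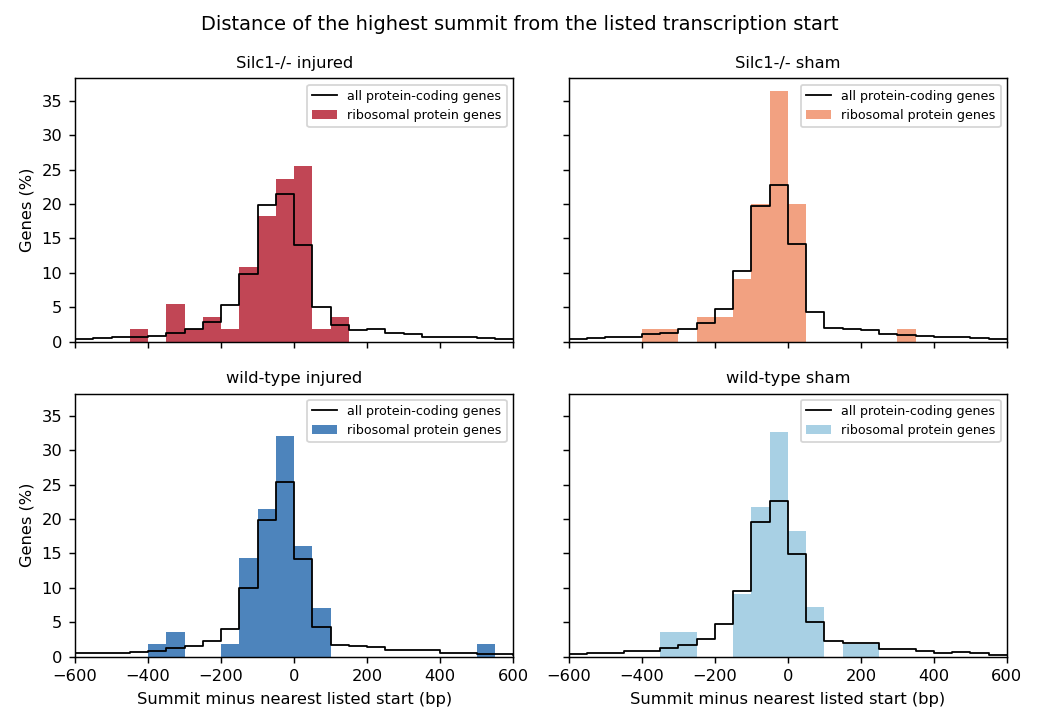
Percent of genes (vertical axis) by the distance of the highest summit from the nearest listed transcription start (horizontal axis, bp, in steps of 50; minus is before the start), for ribosomal protein genes (bars) and all protein-coding genes (line) in each list. The medians of the ribosomal protein genes are −23, −39, −35 and −30 bp in injured Silc1-/-, sham Silc1-/-, injured wild-type and sham wild-type ganglia.

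The same position was found again in each list for many genes. Over the 71 genes in all 4 lists, the distance between the outermost of a gene's 4 highest summits had a median of 52.0 bp, against 75.0 bp over the 8931 genes. It was 50 bp or less for 33 genes (46.5%), against 29.6% of all such genes, and 200 bp or less for 83.1%, against 81.7%. The difference from other genes was therefore in the closest placements. Rpl26 had its summit at position 68901520 of chromosome 11 in 3 lists and at 68901519 in injured wild-type ganglia, a spread of 1 bp. Rpl27a spread over 2 bp, between 109519076 and 109519078 of chromosome 7. The farthest were Rpl41 with 1388 bp, Rpl32 with 478 bp and Rps27a with 402 bp.

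Rpl41, which codes for a very short protein, had a summit at each of its ends in all 4 lists. At the start the summits scored 9.39 in injured Silc1-/-, 24.2 in sham Silc1-/-, 37.1 in injured wild-type and 14.8 in sham wild-type ganglia. Beyond the other end, towards the neighbouring gene Zc3h10, they scored 13.8, 14.1, 26.1 and 23.1 in the same order. The higher of the pair was at the start in sham Silc1-/- and injured wild-type ganglia and beyond the other end in injured Silc1-/- and sham wild-type ganglia, and this exchange made up the large spread.

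Sharing of single summits gave a like picture. Of the summits at ends of ribosomal protein genes, 82.3% in injured Silc1-/- (65 of 79; 72.4% to 89.1%), 78.6% in sham Silc1-/- (66 of 84), 76.7% in injured wild-type (66 of 86) and 81.0% in sham wild-type ganglia (64 of 79) had a partner within 200 bp in each of the other 3 lists. Over all summits at ends of protein-coding genes the shares were 68.8%, 58.5%, 57.7% and 68.2% in the same order. The share without any partner was 2.53% to 5.81% at ribosomal protein genes, against 6.82% to 13.0% at all protein-coding gene ends. These were 4 summits in injured Silc1-/-, 4 in sham Silc1-/-, 5 in injured wild-type and 2 in sham wild-type ganglia. The interval in injured Silc1-/- ganglia, 1.99% to 12.3%, took in the share of all gene ends, 8.53%. So did that in sham wild-type ganglia, 0.697% to 8.77%, with 6.82%. The upper bounds in sham Silc1-/- and injured wild-type ganglia were 11.6% and 12.9%, against 12.5% and 13.0%. Most genes had a single summit at their ends: 65 of 72 genes (90.3%) in injured Silc1-/-, 60 of 72 (83.3%) in sham Silc1-/-, 61 of 73 (83.6%) in injured wild-type and 65 of 72 (90.3%) in sham wild-type ganglia. Of all protein-coding genes with a gene-end summit, 80.0%, 75.4%, 76.2% and 80.6% had a single one in the same order.

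Stretches of 170 bases around the listed starts show where these summits lie in sequence, from 150 bases before the start base to 19 after it, 5′ to 3′ on the strand of the gene and taken from RefSeq. Rpl26 and Rpl27a are shown for the closest placement of their summits, Rpl35 and Rps6 for a pyrimidine run at the start, Rps27 for a match to AAGATGGC and Rpl38 for its low scores. Capitals mark matches on either strand to the 8 motifs described below. The stretches lie at chr11:68901416-68901585 (plus strand) for Rpl26, chr7:109519045-109519214 (plus strand) for Rpl27a, chr2:39005112-39005281 (minus strand) for Rpl35, chr4:86857348-86857517 (minus strand) for Rps6, chr3:90213629-90213798 (minus strand) for Rps27 and chr11:114668430-114668599 (plus strand) for Rpl38.
Rpl26: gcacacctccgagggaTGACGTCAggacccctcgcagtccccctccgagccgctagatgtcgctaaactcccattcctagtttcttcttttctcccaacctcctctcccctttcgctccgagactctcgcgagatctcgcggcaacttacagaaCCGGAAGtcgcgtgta
Rpl27a: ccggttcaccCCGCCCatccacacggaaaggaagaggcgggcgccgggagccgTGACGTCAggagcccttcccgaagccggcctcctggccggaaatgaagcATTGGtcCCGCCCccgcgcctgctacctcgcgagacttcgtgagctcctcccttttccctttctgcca
Rpl35: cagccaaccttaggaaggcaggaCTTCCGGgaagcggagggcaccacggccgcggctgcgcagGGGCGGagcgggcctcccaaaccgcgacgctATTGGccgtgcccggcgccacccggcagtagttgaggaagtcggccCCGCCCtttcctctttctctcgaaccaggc
Rps6: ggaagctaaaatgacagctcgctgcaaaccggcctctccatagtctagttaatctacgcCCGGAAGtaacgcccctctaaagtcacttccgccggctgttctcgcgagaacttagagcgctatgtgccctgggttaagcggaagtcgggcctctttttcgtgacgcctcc
Rps27: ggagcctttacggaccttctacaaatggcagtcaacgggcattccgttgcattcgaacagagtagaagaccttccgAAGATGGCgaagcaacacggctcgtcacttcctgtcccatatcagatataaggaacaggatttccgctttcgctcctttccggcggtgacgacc
Rpl38: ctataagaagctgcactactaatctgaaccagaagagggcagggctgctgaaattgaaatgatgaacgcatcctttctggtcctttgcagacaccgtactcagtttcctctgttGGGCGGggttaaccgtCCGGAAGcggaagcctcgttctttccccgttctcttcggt

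In Rpl26 the summits lay 46 or 47 bases before the start base, and in Rpl27a 117 to 119 bases before it. In Rps6 they lay 25 bases before it in sham Silc1-/- and injured wild-type ganglia, 24 bases before it in sham wild-type ganglia and 23 bases after it in injured Silc1-/- ganglia. The Rps27 summits lay 83 to 89 bases before its start, and this stretch reaches the neighbouring gene Rab13, whose end was 16 to 22 bp from the summits. In Rpl38 the summits lay 23, 29, 117 and 29 bases before the start in injured Silc1-/-, sham Silc1-/-, injured wild-type and sham wild-type ganglia.

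Letters were searched in the whole windows of 300 bases, from 250 before the start to its own base and 49 after, on both strands. The motifs were CCAAT (the CCAAT box), TATAAA (the TATA box), GGGCGG (the GC box), CCGGAAG (an ETS site), AAGATGGC (a YY1 site), GCATGCGC (an NRF1 site), CACGTG (an E-box) and TGACGTCA (a cyclic AMP response element), and none of them contains another. CCGGAAG was in 25 of 72 windows, or 34.7% (24.8% to 46.2%), against 11.6% of the 21263 windows of all protein-coding genes and 8.86% of all 32851 windows. Among the 5415 protein-coding windows with a summit inside in all 4 lists it was in 25.2%, which lies inside the interval. The 72 ribosomal protein windows were not chosen in this way. Of them, 44 (61.1%) held a summit in all 4 lists and 8 held none in any list, so the sets differ in this too. AAGATGGC was in 7 windows, or 9.72% (4.79% to 18.7%), against 3.05% of protein-coding windows, 2.75% of all windows and 6.22% of those with a summit in all 4 lists. Both motifs were thus more common than over all windows, and less clearly so beside windows that are open in all lists. A gene with several windows counts more than once here; counted once per gene, CCGGAAG was in 24 of 60 genes (40.0%) and AAGATGGC in 5 of 60 (8.33%), against 12.9% and 3.57% of all protein-coding genes.

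For GGGCGG and TATAAA the order turned with the windows they were set beside, while CCAAT was less common than in each of them. GGGCGG was in 56.9% of the ribosomal protein windows (45.4% to 67.7%), against 46.2% of protein-coding windows, 35.7% of all windows and 75.8% of those with a summit in all 4 lists. CCAAT was in 29.2% (19.9% to 40.5%), against 38.2%, 37.4% and 47.7%. TATAAA was in 9.72% (4.79% to 18.7%), against 12.6%, 13.6% and 4.38%. Set beside windows with a summit in all 4 lists, ribosomal protein windows held GGGCGG and CCAAT less often and TATAAA more often in these counts. The ribosomal protein windows were not limited to those with a summit in all 4 lists, and the differences were not tested.

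The remaining motifs were in fewer windows. TGACGTCA was in 5 windows, or 6.94% (3.00% to 15.2%), against 2.23% of protein-coding windows, 1.79% of all windows and 4.56% of those with a summit in all 4 lists, and it stands in the stretches of both Rpl26 and Rpl27a above. CACGTG was in 11.1% of ribosomal protein windows (5.74% to 20.4%), against 7.84%, 7.15% and 11.1% in the same order. GCATGCGC was in 4.17% (1.43% to 11.5%), against 3.52%, 2.71% and 6.96%. Windows of ribosomal protein genes had a median GC content of 57.3%, against 56.3% over protein-coding windows and 63.3% over those with a summit in all 4 lists. They held a median of 21.0 CG pairs, against 13.0 and 24.0. A match is only a match of letters, and the lists give no binding of any factor.

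The start itself was searched for a pyrimidine run, a looser mark than the TOP tract. The run was extended to both sides of the C, so it could lie before the start as well as after it. In the Rps2 window and an Rpl35a window the C was the last base of the run. A C as the start base within a run of at least 4 pyrimidines was found in 18 of 72 windows, or 25.0% (16.4% to 36.1%), against 6.50% of protein-coding windows, 7.64% of all windows and 6.52% of those with a summit in all 4 lists. Allowing the C to lie within 5 bases of the listed start, a choice made after seeing the data, gave 66.7% (55.2% to 76.5%), against 43.6% of protein-coding windows and 43.8% of all windows. A listed start a few bases from the true one would be missed by the stricter rule. The windows with a run of 10 or more pyrimidines are shown as stretches of 30 bases, from 10 before the start base, with the run in capitals.
Rpl35: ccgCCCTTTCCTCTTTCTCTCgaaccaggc
Rpl15: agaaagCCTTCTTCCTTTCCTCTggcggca
Rpl14: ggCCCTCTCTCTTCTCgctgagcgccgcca
Rpl35a: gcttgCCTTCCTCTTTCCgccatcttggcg
Rps10: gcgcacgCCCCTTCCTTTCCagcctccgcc
Rpl28: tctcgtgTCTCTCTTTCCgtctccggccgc
Rps18: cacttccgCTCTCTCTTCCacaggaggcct
Rpl32l: aaatgaccagCTTCTTCCTTggtgctgcct
Rpl38: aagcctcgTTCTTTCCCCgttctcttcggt
Rplp2: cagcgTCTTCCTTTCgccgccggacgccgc
Rps6: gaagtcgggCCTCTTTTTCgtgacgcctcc

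These 11 stretches include Rpl35, with the longest run at 18 bases, and Rpl15, one of the genes with the highest scores. They also include Rpl38 and Rpl35a, which were among the lowest by score, and Rpl32l, which had no summit in any list. A pyrimidine run at the start therefore went with high, low and absent summits alike.

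Several ribosomal protein genes have the end of another gene close to one of their own ends. 33 of the 80 genes had an end of another protein-coding or long noncoding RNA gene within 1 kb of their own ends. For 6 genes the highest summit lay nearer the other gene's end in all 4 lists: Rpl15 (with Nkiras1), Rpl36 (Micos13), Rpl37 (Card6), Rpl3l (Msrb1), Rpl4 (Snapc5) and Rps27 (Rab13). For 15 genes this held in at least 1 list. These counts were not made over all protein-coding genes, so close neighbours cannot be called particular to ribosomal protein genes. The part of neighbouring genes in the share of 88.8% in all 4 lists was not tested. For Rpl3l and Rpl4 that other end lies beyond the end of the gene away from the listed starts. The Rpl15 summits lay 17 to 61 bp from the end of Nkiras1 and 89 to 171 bp from that of Rpl15.

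Rpl3l, the copy of Rpl3 that heart and skeletal muscle use in its place, was counted only through such a neighbour. Its summits had scores of 18.2 in injured Silc1-/-, 34.4 in sham Silc1-/-, 54.4 in injured wild-type and 17.4 in sham wild-type ganglia. They lay 24 to 86 bp from the end of Msrb1, and 364 to 426 bp beyond the right end of Rpl3l. No list held a summit within 1 kb of a listed start of Rpl3l. Rpl4, of the large subunit, was similar in that its highest summit lay 7 to 39 bp from the end of Snapc5, but summits within 1 kb of its own start were in 3 lists.

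Proteins of the same ribosome outside the symbol rule were also found. Of 8 such genes, 6 had a gene-end summit in all 4 lists, among them Rpsa, Rps3a1, Fau, Rpl22l1 and Rpl36al. Rpl22l1, the copy of Rpl22, scored 38.4 in injured Silc1-/-, 52.3 in sham Silc1-/-, 63.0 in injured wild-type and 34.5 in sham wild-type ganglia. Rpl7l1 was in 3 lists and Rps27rt in none.

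Other genes of translation gave like counts. 41 of 45 genes of translation initiation and elongation (91.1%; 79.3% to 96.5%) had a gene-end summit in all 4 lists, as had 30 of 35 genes of ribosome biogenesis (85.7%; 70.6% to 93.7%). The intervals overlap that of the cytosolic ribosomal protein genes. Eef1a2, the form of elongation factor 1A of neurons and muscle, had no gene-end summit in any list, nor had Pes1 and Ubtf among biogenesis genes. Of 17 genes around TOP RNAs and mTORC1, 14 were in all 4 lists and Larp1, Larp4 and Eif4ebp3 in none. Larp1, Larp4 and Ubtf had summits inside the gene in all 4 lists, Eef1a2 in 2 and Pes1 in 1.

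Mitochondrial ribosomal proteins, which serve the separate ribosome of mitochondria, had a share in all 4 lists whose interval overlaps that of the cytosolic genes. 63 of 78 genes (80.8%; 70.7% to 88.0%) were in all 4 lists. The counts were 67 in injured Silc1-/-, 70 in sham Silc1-/-, 73 in injured wild-type and 67 in sham wild-type ganglia. Mrpl4, Mrpl18, Mrpl24 and Mrps23 had no gene-end summit in any list. Inside the gene, Mrpl18, Mrpl24 and Mrps23 had summits in all 4 lists and Mrpl4 in 3. Among the genes in all 4 lists, the 63 mitochondrial ones had a median percentile of 45.0 in injured Silc1-/-, 46.9 in sham Silc1-/-, 49.2 in injured wild-type and 37.0 in sham wild-type ganglia, each below the median of the cytosolic genes given above for the same list.

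Ribosomal protein pseudogenes showed almost no summits. Of 318 pseudogenes, 6 had a summit within 1 kb in injured Silc1-/- ganglia (1.89%; 0.868% to 4.05%), 8 in sham Silc1-/-, 7 in injured wild-type and 2 in sham wild-type ganglia. None was in all 4 lists. Other pseudogenes were not counted, so these low shares cannot be called particular to ribosomal ones. How reads that match several places were treated is not given in the sources used here.

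Marker genes of cell types of the ganglion, and of skeletal muscle, were found less constantly than ribosomal protein genes. Of 25 markers of sensory neurons 8 had a gene-end summit in all 4 lists, as had 2 of 14 markers of satellite glia and Schwann cells, 0 of 16 of macrophages, 1 of 8 of neutrophils, 0 of 10 of endothelial and mural cells and 3 of 10 of skeletal muscle, against 40.8% of all protein-coding genes. With a summit counted anywhere in the gene or within 1 kb, 11 of 25 neuron and 7 of 14 glial markers were in all 4 lists. The counts were 2 of 16 for macrophages, 1 of 8 for neutrophils, 1 of 10 for endothelial and mural cells and 3 of 10 for muscle. All protein-coding genes lay at 52.0% by this measure. By gene end in the separate lists, neuron markers lay at 44.0% in injured Silc1-/-, 64.0% in sham Silc1-/-, 52.0% in injured wild-type and 44.0% in sham wild-type ganglia. All protein-coding genes lay at 45.6%, 50.8%, 51.9% and 46.2% in the same order. Macrophage markers lay at 0%, 12.5%, 12.5% and 6.25%. Of the 14 glial markers 3 were found in injured Silc1-/-, 5 in sham Silc1-/-, 7 in injured wild-type and 3 in sham wild-type ganglia. The neutrophil markers numbered 1, 1, 4 and 3 of 8 in the same order, the endothelial and mural ones 1, 1, 3 and 1 of 10, and the skeletal muscle ones 3, 4, 4 and 3 of 10. Ganglia are mixtures, so fewer cells with an open site and less openness per cell cannot be told apart, and the part of cell makeup in the scores of ribosomal protein genes was not tested.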

How the data were processed

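ATAC-seq was made from dorsal root ganglia of 12 libraries, 3 in each of 4 groups taken from the titles. The deposited files are 4 lists of summits, 1 per group, each with a −log10 score from the authors' peak caller; no source says if it is a p-value or a q-value. The submitters' processing notes name Bowtie2, MACS2 and the build mm10. Their versions, the read filters, any shift for the transposase and the pooling of libraries were not stated there. Depth is unknown, as the files carry no read counts.

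Genes came from RefSeq tables of GRCm38.p6 (the mm10 build), and positions are 1-based. A gene was called in a list where a summit lay within 1 kb of either end; its score is that of its highest such summit. Percentiles were taken within a list. Summits were shared within 200 bp. Shares carry 95% Wilson intervals. With 1 list per group no test between groups and no p-value could be had. Python 3.11.15, numpy 2.4.6 and pandas 2.3.3 were used, and the counting was checked on simulated lists. Alternatives were gene-end limits of 500 or 2500 bp, minimum scores of 5 or 10, lists cut to equal length, listed starts only, leaving out 4 tissue-restricted or duplicated genes, and sharing distances of 50, 500 and 1000 bp. Genes named are those absent from a list, the 5 highest and lowest by score in a list, those with the closest and farthest summits, a set chosen for function, and in the other lists the genes in no list where there were at most 6; a few widest shifts of rank were named after their values were seen. Some genes that this rule names are not reported here. The members and lists were chosen with earlier results of these data known.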

Additional observations from a re-analysis of the deposited data

How the results depend on the processing

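Of 200 values recomputed under another setting, 107 kept to the interval of the first value or to within 1.5 times the first count, and 93 did not; 46 of the 93 are shares of summits with a partner in 1 other list. No paired analysis was possible because each group has 1 list, and for the same reason no replicate could be left out. Among the shares of genes with a gene-end summit, limits of 2500 bp gave 95% in injured Silc1-/-, 96.2% in injured wild-type and 95% in sham wild-type ganglia, and counting summits anywhere in the gene gave 95%, 95%, 96.2% and 96.2% (injured Silc1-/-, sham Silc1-/-, injured wild type, sham wild type), against 51.1% to 58.1% and 57.3% to 64.9% of all protein-coding genes. A minimum score of 5 gave 77.5% in injured Silc1-/- ganglia, against 36.2% of all protein-coding genes. A minimum of 10 gave 47.5% there, 78.8% in sham Silc1-/- and 66.2% in sham wild-type ganglia (all protein-coding genes 22.0%, 32.3% and 30%), and 36 genes in all 4 lists, against 20.4% of all protein-coding genes.

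Genes in 1 list and not in the other moved most with a minimum score. Counts here are of 80 genes, and brackets give the share of all protein-coding genes. With injury and not sham in Silc1-/- the count was 0 at a score of 5 (1.54%) and 0 with equal lengths (2.77%). With sham and not injury it was 2 at 500 bp (6.65%), 0 at 2500 bp (8.43%), 9 at a score of 5 (8.28%) and 26 at 10 (11%). With injury and not sham in wild type it was 4 at 5 (7.16%) and 16 at 10 (8.73%). It was 0 with equal lengths (3.97%) and 0 with summits anywhere in the gene (8.77%). In injured ganglia, in wild type and not Silc1-/-, it was 2 at 500 bp (7.70%), 10 at 5 (10.8%) and 31 at 10 (16.3%). In sham ganglia, in Silc1-/- and not wild type, it was 0 at 2500 bp (8.22%), 3 at 5 (5.47%) and 11 at 10 (5.11%). With summits anywhere in the gene it was 0 (9.01%). In wild type and not Silc1-/- it was 0 at 5 (2.35%). The counts given at a score of 10 were 26, 16, 31 and 11 of 80 genes. Each was a larger share than that of all protein-coding genes in its bracket. Ribosomal protein genes thus differed more often between these lists than all genes at that setting. At a score of 10, the share of all protein-coding genes with a gene-end summit was 22.0% in injured and 32.3% in sham Silc1-/- ganglia. It was 38.0% in injured and 30.0% in sham wild-type ganglia. The part of the score scale of each list in these counts was not tested.

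Sharing with all 3 other lists (injured Silc1-/-, sham Silc1-/-, injured wild type, sham wild type) was 49.4%, 48.8%, 46.5% and 49.4% at 50 bp, 94.9%, 91.7%, 90.7% and 94.9% at 500 bp, 96.2%, 94.0%, 90.7% and 96.2% at 1000 bp, and 92.1%, 54.5%, 49.3% and 63.6% at a minimum score of 10. These are shares of summits at ribosomal protein genes. The share over all protein-coding gene ends is given above at 200 bp only, so no comparison with other genes is drawn at these settings. The pyrimidine run was found in 66.7% of windows within 5 bases of the start. The unknown depth of the lists limits all of these values.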
